A study of Mus musculus with 2 samples.

Results

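Osr2/Foxl2 periocular mesenchyme is a set of fibroblast-like cells around the developing eye, and 1286 such cells were found among the 20430 cells of both e15.5 eye cup libraries that passed the filters. A cell was kept when it had at least 200 genes, at least 2000 UMIs and at most 15% mitochondrial UMIs. A UMI is a unique molecular identifier, a tag by which each captured transcript is counted once. Members were the kept cells with at least 10 UMIs of the fibrillar collagen genes Col1a2 and Col3a1 together and with UMIs of at least 2 of the 5 transcription factor genes Osr2, Osr1, Foxl2, Tbx22 and Alx1. They could have at most 1 of the tendon genes Scx, Tnmd, Meox2, Meox1 and Mkx, at most 1 of the keratocyte genes Kera, Matn4, A2m, Cpxm2 and Dpep1, and no UMI of the endothelial gene Pecam1 or the muscle gene Myod1. All these genes chose the cells, so their levels below are a description of the choice.

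The study deleted Myrf, which encodes a transcription factor, to ask what it does in the developing eye. One library was made from control eye cups, Myrf fl/fl, in which both Myrf copies carry loxP sites, and the other from mutant eye cups, Rx>cre Myrf fl/fl, which carry a Cre recombinase under the control of Rx as well. Both were of embryonic stage e15.5, both carried the floxed alleles, and each pooled 3 eye cups after the cornea, lens and optic nerve had been taken off. Rx is active in the early eye field, which gives rise to the retina and pigment epithelium, whereas periocular mesenchyme arises from neural crest and mesoderm. Whether Cre was active in the mesenchymal cells was not tested. With 1 library per genotype no test between genotypes was possible, no p-value is given, and each interval (95%) covers counting error only.

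Periocular mesenchyme forms the sclera, corneal stroma, eyelids, orbital connective tissue and the attachments of the eye muscles. Foxl2 is a forkhead factor needed for eyelid development, and mutations in it cause blepharophimosis in humans. Osr1 and Osr2 are zinc finger factors of the odd-skipped family, which act in connective tissue and in the palate, Tbx22 is an X-linked T-box factor known from cleft palate, and Alx1 is a homeobox factor of frontonasal and periocular mesenchyme.

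The control library held 13017 barcodes and the mutant library 13880, and 9722 and 10708 cells were kept. Both libraries shared 69 barcode sequences, and none of these was a member in both. The 742 control members had 10274356 UMIs in all and between 2579 and 49018 per cell, with a median of 12671 UMIs and 3747 genes. The 544 mutant members had 7025352 UMIs and between 2040 and 54336 per cell, with a median of 11756 UMIs and 3579 genes. The median mitochondrial share was 4.91% and 4.88%. Scrublet, which compares cells with simulated mixtures, called 8.76% of control and 8.09% of mutant members doublets, and they were kept in the main values. The study's stated upper limit of 2000 UMIs per cell would remove every member.

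The libraries also differed in the sex of the pooled embryos. Among control members 734 of 742 had Xist, which is transcribed from the inactive X of female cells, without a Y-linked UMI, and 1 had a Y-linked UMI. Of the 544 mutant members, 202 had Xist and no Y-linked UMI, 239 had a Y-linked and no Xist UMI, 46 had both and 57 had neither. The mutant pool thus held cells of both sexes, and those with Xist and those with Y-linked transcripts came from different embryos. Mutant levels are given for both of these subsets where they bear on a result. Both subsets are compared with the same control library, and genotype cannot be told apart from embryo or from library preparation.

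Myrf, the gene targeted in the mutant (ENSMUSG00000036098, GRCm38 chromosome 19, 10208272 to 10240748, minus strand), was scarce in these cells. It had 31 UMIs in control and 10 in mutant members, or 3.02 and 1.42 CPM, where CPM is UMIs of a gene per 1000000 UMIs of the same cells. The mutant level was 0.472 (0.206 to 0.987) of the control level. Myrf is also a gene of the pigment epithelium, and the summed level of 10 pigment epithelium genes was 254 CPM in control and 56.1 CPM in mutant members. The part of such transcripts in the Myrf values was not tested. Myrf was detected in 3.50% of the control members and in 1.84% of the mutant members, beside 1.62% and 0.620% of retinal cells. Among the other cells with 10 or more collagen UMIs and no Pecam1 or Myod1, the shares were 2.70% and 2.23%. After each cell was thinned to 2000 UMIs the shares of members were 0.270% and 0.368%, with intervals that overlapped, so no difference was detectable at that depth. Tmem98, whose product binds MYRF, was at 31.8 CPM in control and 26.0 CPM in mutant members.

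The rule was first followed step by step. In the control library 3336 kept cells had 10 or more collagen UMIs, called mesenchyme here, and 1215 of them also had at least 2 of the 5 factor genes. Of these, 389 were set aside with 2 or more tendon genes, 116 with 2 or more keratocyte genes and 17 with Pecam1 or Myod1, with some cells in more than one of these sets. In the mutant library the mesenchyme held 2463 cells, 804 had 2 or more factor genes, and 202, 83 and 18 cells were set aside. Few kept cells with 2 or more factor genes lacked the collagens, since 1249 control and 827 mutant kept cells had them in all. A UMI of 1 tendon gene was present in 290 control and 183 mutant members, while 289 and 260 members had neither a tendon nor a keratocyte gene.

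Members fell into many combinations of the 5 factor genes. Osr2 (ENSMUSG00000022330, GRCm38 chromosome 15, 35296098 to 35303305, plus strand) was detected in 92.7% of the control members and in 89.2% of the mutant members. Foxl2 (ENSMUSG00000050397, chromosome 9, 98955288 to 98958543, plus strand) was seen in 82.9% and 71.0%. Osr1 (chromosome 12) was seen in 55.4% and 58.6%, Tbx22 (chromosome X) in 55.0% and 47.6%, and Alx1 (chromosome 10) in 50.5% and 49.4%. Osr2 and Foxl2 were detected together in 581 control members (78.3%) and 351 mutant members (64.5%). The most frequent single combination in both libraries was Osr2, Foxl2, Osr1 and Tbx22 without Alx1, with 112 control and 60 mutant cells. All 5 genes were detected in 92 control and 40 mutant members, whereas 165 and 151 had only the 2 that the rule required.

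The same genes were rare outside the mesenchyme. After thinning to 2000 UMIs, Osr2 was detected in 53.1% of control members (49.4% to 56.7%), in 9.45% of the other control mesenchyme and in 0.234% of control retinal cells, which should lack it. The corresponding shares for Foxl2 were 33.7%, 2.62% and 0.156%. In the mutant library Osr2 was detected in 49.1%, 7.76% and 0.169%, and Foxl2 in 25.6% and 1.90% of members and other mesenchyme and in none of the retinal cells (Clopper-Pearson upper limit 0.0693%, for thinned cells only). The unthinned shares of control retinal cells were 1.07% for Osr2 and 0.599% for Foxl2, at a median depth of 10089 UMIs, and 14 of the 5320 mutant retinal cells (0.263%) had a Foxl2 UMI unthinned, at a median depth of 9557 UMIs.

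**Figure D1:**
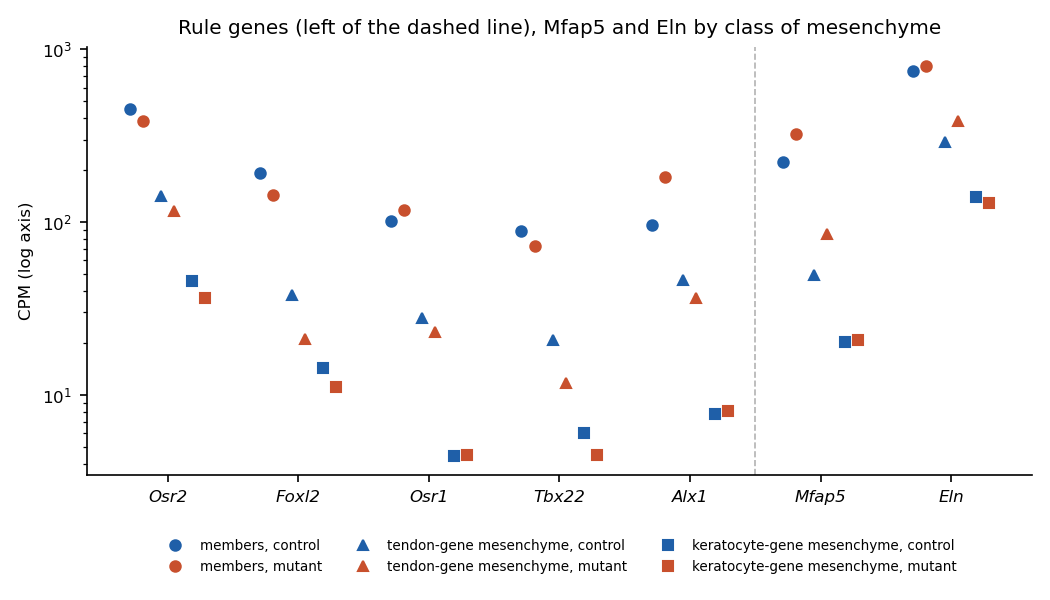
CPM of the 5 factor genes used by the rule and of Mfap5 and Eln, which it did not use, on a log axis, in members and in mesenchyme with 2 or more tendon genes or 2 or more keratocyte genes, for the control (blue) and mutant (orange) library. Members are highest for every gene shown, tendon-gene mesenchyme is intermediate and keratocyte-gene mesenchyme is lowest, and Mfap5 goes from 221 CPM in control members to 20.2 CPM in control keratocyte-gene cells.

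Mfap5 and Eln were proposed as markers of these cells from earlier results of these data, so their levels in members describe the cells and do not test the label. Mfap5 encodes a microfibril-associated glycoprotein (ENSMUSG00000030116, chromosome 6, 122505845 to 122529290, plus strand). It was at 221 CPM in control members and 24.9 CPM in the other control mesenchyme, a ratio of 8.87 (8.24 to 9.56). In the mutant it was at 324 and 36.9 CPM, a ratio of 8.79 (8.19 to 9.45). Eln encodes tropoelastin (ENSMUSG00000029675, chromosome 5, 134702593 to 134747323, minus strand) and was at 746 CPM in control members against 207 CPM in the other mesenchyme, a ratio of 3.61 (3.50 to 3.73), with 3.29 (3.18 to 3.41) in the mutant. Both markers were higher in members in each library.

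Levels of several genes outside the rule differed with the number of factor genes detected in a cell. Among control mesenchyme cells that met every other condition, Mfap5 was at 6.42 CPM in the 593 cells with none of the 5 genes and at 22.4 CPM in the 248 cells with 1, which lay just outside the threshold. It was at 107 CPM in the 165 cells with 2, just inside it, and at 215, 257 and 344 CPM with 3, 4 and 5. Mutant cells gave 11.5 and 36.0 CPM outside the threshold and 228, 266, 428 and 451 CPM inside it. The median depth of the control cells with 2, 3, 4 and 5 genes was 12454, 11861, 13307 and 12454 UMIs, and cells with 0 or 1 were deeper, at 14535 and 14268 UMIs. In the mutant the medians were 10907, 10824, 13627 and 13255 UMIs with 2, 3, 4 and 5 genes, higher with 4 or 5 than with 2 or 3, and 15044 and 14509 UMIs with 0 or 1. Dkk2, a secreted Wnt antagonist, ran the other way, from 551 CPM with none to 124 CPM with all 5 in the control and from 481 to 75.5 CPM in the mutant. Efemp1 was lower with 5 genes than with 4, at 196 against 237 CPM in the control and 142 against 229 CPM in the mutant, where cells with 2 had 159 CPM. Eln and Cd34 were also lower with 5 than with 4 in the mutant, at 827 against 860 CPM and 132 against 158 CPM, over only 40 cells with all 5.

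**Figure D2:**
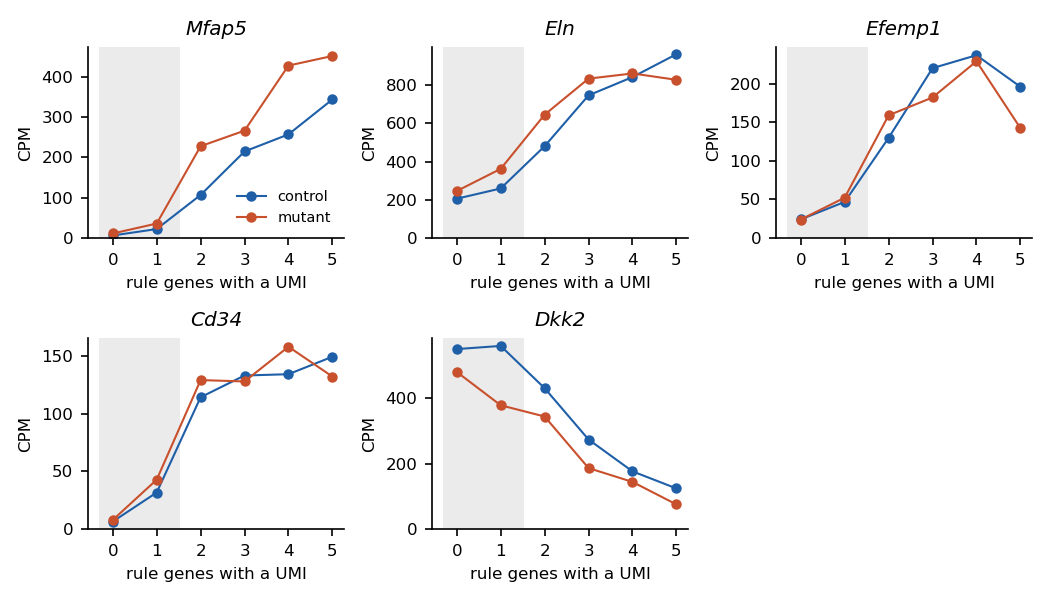
CPM of 5 genes that the rule did not use (vertical axes) against the number of the 5 factor genes with a UMI (horizontal axes), in mesenchyme cells of the control (blue) and mutant (orange) library that met the other conditions of the rule; cells in the grey area were not members. Mfap5, Eln, Efemp1 and Cd34 are higher in members than in non-members, and Dkk2 is lower at each step from 1 factor gene onwards in both libraries.

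Members were next set against the other mesenchyme gene by gene. Of 14111 genes with enough UMIs, 934 (6.62%) were at least 1.5-fold higher in members in both libraries and 857 (6.07%) were at least 1.5-fold lower in both. These shares are the background for the lists that follow. Since the cells were chosen on their transcripts, the differences describe the choice and were not tested.

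Transcription factors of the head mesenchyme went both ways. Of 43 measured genes of that list, 12 were higher in members and 8 lower. Pitx1, a homeobox factor of the jaw and hindlimb, was at 103 CPM in control members and 21.3 CPM in the other mesenchyme, a ratio of 4.83 (4.41 to 5.29), with 4.12 (3.61 to 4.71) in the mutant. Tbx15, a T-box factor of skin and skeletal mesenchyme, gave ratios of 3.11 and 3.14, and Ebf2, a factor of mesenchymal and fat precursors, gave 2.48 and 3.53. Against tendon-gene mesenchyme alone, however, Tbx15 gave only 1.32 and 1.37, and it was at 2.27 CPM in control keratocyte-gene mesenchyme. Ebf2 gave 1.12 (0.904 to 1.40) and 1.57 (1.24 to 1.98) against tendon-gene mesenchyme, and it was at 0.648 CPM in control keratocyte-gene mesenchyme. The others that were higher were Foxp2, Tfap2a, Alx4, Nr2f1, Lhx8, Barx1, Meis1, Ebf3 and Hic1. Of these, Ebf3 gave 0.930 (0.837 to 1.03) in the control and 1.26 (1.11 to 1.43) in the mutant against tendon-gene mesenchyme. In the same comparison Foxp2 gave 1.25 (1.18 to 1.33) and 0.919 (0.844 to 0.9995), Alx4 1.19 and 1.47, and Hic1 1.34 and 1.45. Lhx8 stood on few transcripts, with 2.43 CPM in control members. Among the 8 that were lower, Twist2, a bHLH factor of the dermis, was at 64.9 CPM in control members against 178 CPM (0.364, 0.336 to 0.394) and gave 0.278 in the mutant. Twist2 was at 410 CPM in control keratocyte-gene mesenchyme, and members were above tendon-gene mesenchyme, at 1.78 (1.57 to 2.01) and 1.60 (1.35 to 1.91). Foxf2, a forkhead factor of perivascular and neural crest mesenchyme, gave 0.213 and 0.193. Against keratocyte-gene mesenchyme Foxf2 gave 1.28 (0.835 to 1.97) and 1.13 (0.651 to 1.93). Foxc2, Lmx1b, Eya1, Msx1 and Barx2 were lower as well.

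Elastic fibre genes were mostly at or above the level of the other mesenchyme. Of 20 genes 7 were at least 1.5-fold higher in both libraries and none was lower by that margin in both, and the median log2 ratio was 0.57 in the control and 0.42 in the mutant, beside 0.03 and 0.05 over all genes. Efemp1, which encodes the fibulin family protein EFEMP1, was at 203 against 36.4 CPM in the control (5.58, 5.21 to 5.96) and gave 6.04 (5.55 to 6.57) in the mutant. Emilin2, an elastin-associated glycoprotein, gave 3.18 and 3.78, and Fbn1, the fibrillin of mature microfibrils, gave 2.08 and 2.73. Fbln1 and Ltbp4 completed the 7 with Eln and Mfap5. Ltbp4, however, gave 0.739 (0.649 to 0.841) and 0.986 (0.862 to 1.13) against tendon-gene mesenchyme, and it was at 6.48 CPM in control keratocyte-gene mesenchyme. Fbn2, a second fibrillin, gave 1.46 and 1.43, and Mfap2, the other small microfibril glycoprotein, gave 0.986 and 0.882, so the elevation did not extend to all microfibril genes.

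Several collagen genes and most bone and cartilage genes were lower in members. None of 16 collagen genes was at least 1.5-fold higher in both libraries, and Col5a1, Col6a2, Col11a1 and Col12a1 were lower. Against tendon-gene mesenchyme alone, Col5a1 gave 0.967 (0.928 to 1.01) and 0.974, and Col6a2 was higher, at 1.22 (1.14 to 1.30) and 1.13. Col5a1 and Col6a2 were at 1096 and 610 CPM in control keratocyte-gene mesenchyme. Col11a1 (0.354 and 0.268) and Col12a1 (0.363 and 0.312) were lower than in tendon-gene mesenchyme too. Col12a1, a fibril-associated collagen of tendon and cornea, was at 114 CPM in control members and 423 CPM in the other mesenchyme (0.270, 0.255 to 0.287), with 0.210 in the mutant. Col3a1, on which the rule drew, gave 1.51 and 1.47. Of 10 bone and cartilage genes 7 were lower, among them Spp1, which encodes osteopontin, at 17.4 against 271 CPM in the control and 10.5 against 221 CPM in the mutant. The one gene that was higher was Hapln1, a link protein that joins hyaluronan to proteoglycans, which was 13.4-fold (9.02 to 20.4) and 17.0-fold (11.9 to 24.9) higher in members. Of 12 small leucine-rich proteoglycan genes 3 were higher (Omd, Podn and Epyc) and 4 lower (Bgn, Fmod, Aspn and Kera, the last a gene of the rule). Epyc was higher in tendon-gene mesenchyme, at 107 CPM in the control against 81.9 CPM in members (0.764, 0.699 to 0.835) and with a ratio of 0.698 in the mutant, and was at 2.75 CPM in keratocyte-gene mesenchyme. In the list of adventitial fibroblast genes, which mark the fibroblasts of vessel walls and fascia, 5 of 8 were higher and none lower. Cd34, a sialomucin of such fibroblasts, was at 131 CPM against 36.8 CPM in the control (3.56, 3.31 to 3.84) and at 138 against 33.7 CPM in the mutant.

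Secreted signals used in eyelid growth were often higher in members, and several antagonists were lower. Of 33 genes 12 were higher and 5 lower. Fgf7, a keratinocyte growth factor, was at 31.5 CPM in control members and 5.69 CPM elsewhere in the mesenchyme (5.54, 4.67 to 6.59), with 20.5 and 3.63 CPM in the mutant. Bmp4, a ligand of the BMP pathway, gave ratios of 3.65 (3.26 to 4.10) and 4.77 (4.22 to 5.40), and Hgf, the ligand of the Met receptor, gave 4.04 and 3.32. Fgf10, whose loss leaves mouse eyelids open at birth, gave 3.07 (2.05 to 4.57) in the control and 10.8 (7.94 to 14.98) in the mutant. Inhba, Inhbb, Bmp5, Bmp7, Wnt5a, Rspo2, Igf1 and Igf2 were the other genes that were higher. Inhba was not above tendon-gene mesenchyme, however, at 14.4 CPM in control members against 16.6 CPM and at 15.2 against 15.4 CPM in the mutant. In that comparison Igf1 gave ratios of only 1.14 and 1.09, and Igf2 1.14 and 1.08. The 5 lower genes were the Wnt antagonists Dkk1 and Dkk2, the activin antagonist Fst, the BMP antagonist Nog and the receptor gene Fgfr2. Dkk2 was at 256 CPM in control members against 829 CPM (0.309, 0.297 to 0.322), and Nog at 3.50 against 9.08 CPM. Of 15 retinoic acid genes 1 was higher, the vitamin A transporter gene Stra6, and 5 were lower, namely Rarb, Cyp26a1, Cyp26b1, Crabp1 and Dhrs3.

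The genes with the largest elevation in both libraries, apart from the rule genes, were of several kinds. Matrix and secreted products were Hapln1, Mfap5, Tnxb, Gdf6, Cxcl5, Pi15, Pi16 and Cpa6. Tnxb, which encodes tenascin X, was at 33.4 CPM in control members against 4.62 CPM (7.23, 6.04 to 8.68) and at 62.2 against 6.56 CPM in the mutant. Gdf6, a BMP family ligand of joints and eye, was at 8.18 against 0.611 CPM and at 7.26 against 0.675 CPM. Pi16 rested on few cells, since 5 cells held 45.7% of its control and 59.4% of its mutant UMIs in members. Transcription factors were Gata3 and Barx1. Gata3 (ENSMUSG00000015619, chromosome 2, 9857078 to 9890034, minus strand) was at 57.4 CPM against 4.74 CPM in the control (12.1, 10.3 to 14.3) and at 28.6 against 4.02 CPM in the mutant (7.12, 5.67 to 8.98). Another kind were genes best known from nerve cells or from cell adhesion, namely Slitrk3, Lrrtm3, Tmeff2, Nxph1, Csmd3, Cdh9, Cdh12, Nkain2, Pex5l and the calcium-binding protein gene Calb1. Slitrk3 was at 18.5 against 1.47 CPM in the control (12.6, 9.39 to 17.2) and at 13.8 against 1.12 CPM in the mutant, beside 0.896 and 0.480 CPM over all other kept cells.

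**Figure D3:**
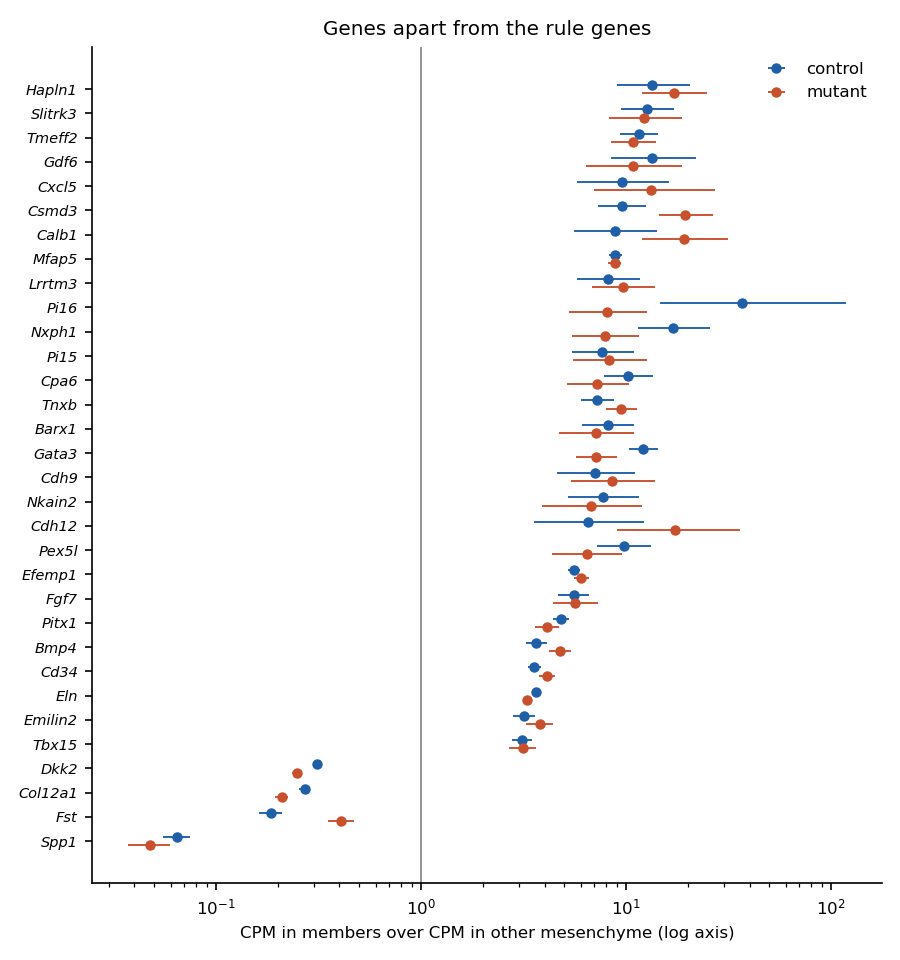
Ratio of CPM in members to CPM in the other mesenchyme on a log axis, with 95% counting intervals, for the control (blue) and mutant (orange) library; the 20 genes of largest elevation are followed by 12 genes picked from the lists after their values were seen, and the grey line marks a ratio of 1. For all genes shown both libraries lie on the same side of 1, and Pi16 has the widest interval.

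The genes lowest in members against the other mesenchyme were Tnmd, Cpxm2, Mkx and A2m, which the rule set aside, followed by Pantr1, Tnn, Aldh3a1, Gsg1l, Pou3f3 and Kcns1. The latter 6 were all genes of the keratocyte-gene mesenchyme. Pou3f3, a POU domain factor, and Pantr1, the noncoding RNA gene beside it on chromosome 1, were at 122 and 113 CPM in control keratocyte-gene cells, at 0.260 and 0.173 CPM in tendon-gene cells and at 0.195 and 0.292 CPM in members.

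Members also differed among themselves. Foxl2 without Tbx22 was detected in 264 control and 201 mutant members, Tbx22 without Foxl2 in 57 and 74, both in 351 and 185, and neither in 70 and 84. Absence of a UMI does not show absence of the transcript at this depth, and the Tbx22 cells were shallower, at a median of 10859 UMIs in the control against 12320 in the Foxl2 cells. Car2, which encodes carbonic anhydrase, was at 26.1 CPM in control Foxl2 cells and 2.77 CPM in control Tbx22 cells, a ratio of 9.42 (2.53 to 78.9), and at 34.6 and 2.35 CPM in the mutant (14.7, 3.95 to 124). Each of those lower values rested on 2 UMIs. Rspo3, which encodes an activator of Wnt signalling, gave 4.20 (1.09 to 35.8) and 5.14 (2.27 to 14.4). The other genes of largest ratio toward the Foxl2 cells were Plcb1, Lgals7, Vwc2, Atp5s, Slco3a1 and Kif26b.

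Toward the Tbx22 cells the genes of largest ratio were Lgi1, Pop1, Sostdc1, Gadd45g, Pdgfa, Hpgd, Ets1 and Anxa3. Anxa3, an annexin gene, was at 32.9 CPM in control Foxl2 cells and 87.3 CPM in control Tbx22 cells, a ratio of 0.377 (0.275 to 0.521), and at 35.8 and 75.2 CPM in the mutant (0.477, 0.341 to 0.668). Sostdc1, a secreted antagonist of BMP and Wnt signals, gave 0.433 (0.285 to 0.672) and 0.420 (0.219 to 0.815). Osr2 differed little between the subsets, at 400 and 374 CPM in the control and 387 and 342 CPM in the mutant. Mfap5 gave a ratio of 0.996 (0.826 to 1.21) in the control and 1.43 (1.22 to 1.69) in the mutant.

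Transcripts of other cell types were present in members. The 12 neural retina genes summed to 692 CPM in control and 1066 CPM in mutant members, against 572 and 789 CPM in the other mesenchyme, and none was at 0. Their median log2 ratio of mutant over control was 0.56 in members, but -0.82, in the other direction, between members that had Xist but no Y-linked UMI. Of 6 retinal genes used to gauge free RNA, 5 were in members at 17.6% to 21.8% of their level over all control barcodes, and at 17.3% to 19.04% in the mutant. Sfrp2 was at 62.5% and 96.4%. The 10 pigment epithelium genes summed to 254 CPM in control and 56.1 CPM in mutant members, and 6 erythroid genes to 11241 and 5948 CPM. The 8 pericyte genes summed to 106 and 187 CPM, with Higd1b at 0 in both. Immune genes summed to 11.2 and 16.9 CPM and epithelial genes to 36.7 and 16.7 CPM. Endothelial genes summed to 81.7 and 78.9 CPM, with the rule gene Pecam1 at 0, muscle genes to 16.5 and 19.6 CPM, with the rule gene Myod1 at 0, and melanocyte and Schwann cell genes to 53.7 and 27.6 CPM, with Sox10 at 0 in the mutant. Genes of the dissociation response were at 288 and 232 CPM in sum. The median log2 ratio of mutant over control was -2.38 for the pigment genes and -0.94 for the erythroid genes, and the latter turned direction between those Xist cells (0.20) and with thinning to 2000 UMIs before the rule (0.77). Without the members richest in them, which left 716 and 535 members, 4 of the 9 pigment genes and 5 of the 6 erythroid genes still passed the filter on low counts, with medians of -0.46 and -0.045. These medians are over fewer genes and cannot be set directly against the first. The part of the other transcripts in the genotype values below was not tested.

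The share of members was lower in the mutant library over all kept cells, and within the mesenchyme the ratio depended on the rule. Of the 9722 control cells 7.63% (7.11% to 8.18%) were members, and of the 10708 mutant cells 5.08% (4.67% to 5.51%). The ratio was 0.666 (0.595 to 0.745). Among mesenchyme cells they were 22.2% (20.8% to 23.7%) in the control and 22.1% (20.5% to 23.8%) in the mutant, a ratio of 0.993 (0.887 to 1.11). When cells with a tendon or keratocyte gene were left out of the members, 289 and 260 remained, and the ratio within the mesenchyme was 1.22 (1.03 to 1.45) and that over all kept cells 0.817 (0.688 to 0.969). The whole mesenchyme took 34.3% of the control cells and 23.0% of those of the mutant, with a ratio of 0.670 (0.636 to 0.706). Tendon-gene mesenchyme gave a ratio over all kept cells of 0.544 (0.480 to 0.616) and keratocyte-gene mesenchyme 0.706 (0.635 to 0.785). The amount of periocular tissue left on an eye cup at dissection sets these shares too, and its part was not tested.

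Gene levels in members were then compared between the genotypes. Of 13022 genes measured, 740 (5.68%) were at least 1.5-fold higher in mutant than in control members and 520 (3.99%) at least 1.5-fold lower, together 9.68%, and the median log2 ratio was 0.0030. Between the 734 control and 202 mutant members with Xist and no Y-linked UMI, 678 genes were higher and 1118 lower, so the larger number then lay on the other side. Among the 8366 genes with 200 or more UMIs over both libraries, 187 (2.24%) were past 1.5-fold in either direction. In the other mesenchyme, with genes of at least the same CPM, 73 of 8337 (0.876%) were. Members were the shallower group, with 10274356 control and 7025352 mutant UMIs, while other mesenchyme summed to 40947120 and 31116111 UMIs, so counting error was larger in members and the difference between these shares was not tested.

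Genes past 1.5-fold were also found inside the mutant library. When mutant members with Y-linked UMIs were set against mutant members with Xist, 98 of 4282 genes with 200 or more UMIs (2.29%) were past 1.5-fold, with Xist and the Y-linked genes left out. This comparison used no control cells, and it sets embryos of one genotype against each other, though also one sex against the other. Over the same 4282 genes, 77 (1.8%) were past 1.5-fold between the genotypes. Fewer cells stood behind the comparison of the subsets, and the difference between these shares was not tested.

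The genes of the rule themselves gave modest ratios of mutant to control, conditional on the choice of cells. Osr2 was at 449 CPM (436 to 462) in control and 386 CPM (372 to 401) in mutant members, and Foxl2 at 191 CPM (183 to 200) and 144 CPM (135 to 153), ratios of 0.861 and 0.752. Foxl2 was at 151 CPM in the mutant Xist cells and 148 CPM in the mutant Y cells, so both subsets lay below the control. In the other mesenchyme its ratio was 0.589 (0.513 to 0.674). Osr1 gave 1.16 and Tbx22 0.817, with 61.2 CPM in Xist and 92.5 CPM in Y cells of the mutant against 89.3 CPM in the control.

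Alx1 (ENSMUSG00000036602, chromosome 10, 102998707 to 103030215, minus strand) stood apart from the other 4. It was at 95.7 CPM (89.8 to 102) in control and 182 CPM (173 to 193) in mutant members, a ratio of 1.91 (1.75 to 2.07). The mutant Xist cells were at 292 CPM (272 to 314) and the mutant Y cells at 95.4 CPM (84.8 to 107), the latter level with the control. The share of members with an Alx1 UMI was 50.5% in the control and 49.4% in the mutant, and after thinning it was 13.5% (11.1% to 16.1%) in the control and 136 of 544 (21.4% to 28.9%) in the mutant. The 5 richest cells held 9.05% of its mutant UMIs, so those 5 alone did not carry the excess. The rise was not general, however. Per cell, the median Alx1 count was 1 among control and 0 among mutant members. The upper quartiles were 2 and 2.25 and the highest counts 18 and 26. The excess thus lay mainly in the members richest in Alx1. In the other mesenchyme the ratio was 0.742.

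Fgf10 showed the same order of the subsets. It had 47 UMIs in control and 142 in mutant members, or 4.57 and 20.2 CPM, a ratio of 4.42 (3.16 to 6.28), with 37.4 CPM (30.3 to 45.7) in mutant Xist cells and 9.84 CPM (6.64 to 14.0) in mutant Y cells. A Fgf10 UMI was found in 4.85% of control and 13.1% of mutant members, and in 0.365% and 0.207% of retinal cells. Its ratio in the other mesenchyme was 1.25. Of the 33 eyelid signal genes 6 were at least 1.5-fold higher and 2 at least 1.5-fold lower in the mutant, where 5.68% and 3.99% of all genes were, with a median log2 ratio of 0.13. Fgf7 was at 31.5 and 20.5 CPM, a ratio of 0.650 (0.530 to 0.793), but its log2 ratio was 0.27, in the other direction, when cells were thinned to 2000 UMIs before the rule. Tgfb2 was at 139 and 96.7 CPM (0.693, 0.632 to 0.760). Dkk1, at 3.02 and 12.1 CPM, rested on 5 cells for 83.9% of its control UMIs and 52.9% of its mutant UMIs.

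Of 41 measured mesenchyme transcription factors, 7 were at least 1.5-fold higher in mutant members and 4 at least 1.5-fold lower, beside the 5.68% and 3.99% of all genes, and the list's median log2 ratio was -0.02. Pitx1 was at 103 CPM (96.6 to 109) in the control and 61.8 CPM (56.1 to 67.9) in the mutant, a ratio of 0.602 (0.537 to 0.673). Both mutant subsets were alike, at 59.2 and 64.9 CPM. Pitx1 was detected in 47.3% of control and 27.9% of mutant members, and in 17.1% (14.5% to 20.02%) and 9.74% (7.38% to 12.6%) after thinning. Foxp2, a forkhead factor, gave 0.658 (0.611 to 0.708), with 228 CPM in the control and 147 and 169 CPM in the mutant subsets. Nr2f1, an orphan nuclear receptor, was at 167 and 300 CPM, a ratio of 1.80 (1.69 to 1.92), with 377 CPM in mutant Xist and 213 CPM in mutant Y cells. Nr2f1 is also a retinal gene, at 237 and 232 CPM in retinal cells. Ebf1, a factor of fibroblast and fat lineages, was at 260 CPM in the control and at 375 and 400 CPM in the mutant subsets.

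Of 20 elastic fibre genes 2 were at least 1.5-fold higher, Ltbp2 and Ltbp4, and none lower, with a median log2 ratio of 0.08. Mfap5 gave 1.47 (1.38 to 1.55) and was 1.48-fold higher in the other mesenchyme too, and Eln gave 1.06 (1.03 to 1.10), with 651 CPM in mutant Xist and 995 CPM in mutant Y cells around a control level of 746 CPM. For Eln the difference within the mutant pool was thus the larger. Of the 16 collagen genes 1, Col15a1, was at least 1.5-fold higher and none lower, and they had a median log2 ratio of 0.20 in members and 0.47 in the other mesenchyme. Col15a1 rested on few transcripts, with 8 UMIs in control and 16 in mutant members. It was at 0.779 and 2.28 CPM there, against 9.56 and 7.50 CPM over all other kept cells. Col1a1 was at 2768 and 3584 CPM in members, a ratio of 1.29, and its ratio in the other mesenchyme was 1.46. Of the 11 proteoglycan genes 2 were at least 1.5-fold higher, Aspn and Podn, and none lower. These counts stand beside 5.68% higher and 3.99% lower over all genes. The proteoglycan median was 0.10, that of the 15 retinoic acid genes 0.03, the S phase genes 0.08 and the G2/M genes -0.02.

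The genes with the largest elevation in the mutant members were Hpgd, Cdh6, Lmo7, Snap25, Bmp3, Acta2, Ntng1, Epha3, Jag1, Bst2, Ifitm3 and Clec2d. Bmp3, a BMP family ligand of bone and eye mesenchyme, was at 21.1 CPM (18.4 to 24.1) in the control and 63.2 CPM (57.5 to 69.4) in the mutant, and mutant Xist and Y cells were alike, at 68.9 and 63.3 CPM. Cdh6, a type II cadherin, was at 33.6 CPM and 133 CPM (3.96, 3.49 to 4.49), with 176 and 91.8 CPM in the mutant subsets and a ratio of 0.957 in the other mesenchyme. Epha3, an ephrin receptor, was at 46.9 and 129 CPM, with 173 and 106 CPM in the subsets. Hpgd, which inactivates prostaglandins, was at 9.34 and 37.2 CPM, with 54.5 and 18.4 CPM. For Acta2, the smooth muscle actin gene, 5 cells held 81.3% of the mutant UMIs and the ratio of 2.96 lost its direction without the richest cells. In Bmp3, Cdh6, Epha3 and Hpgd both mutant subsets lay above the control.

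**Figure D4:**
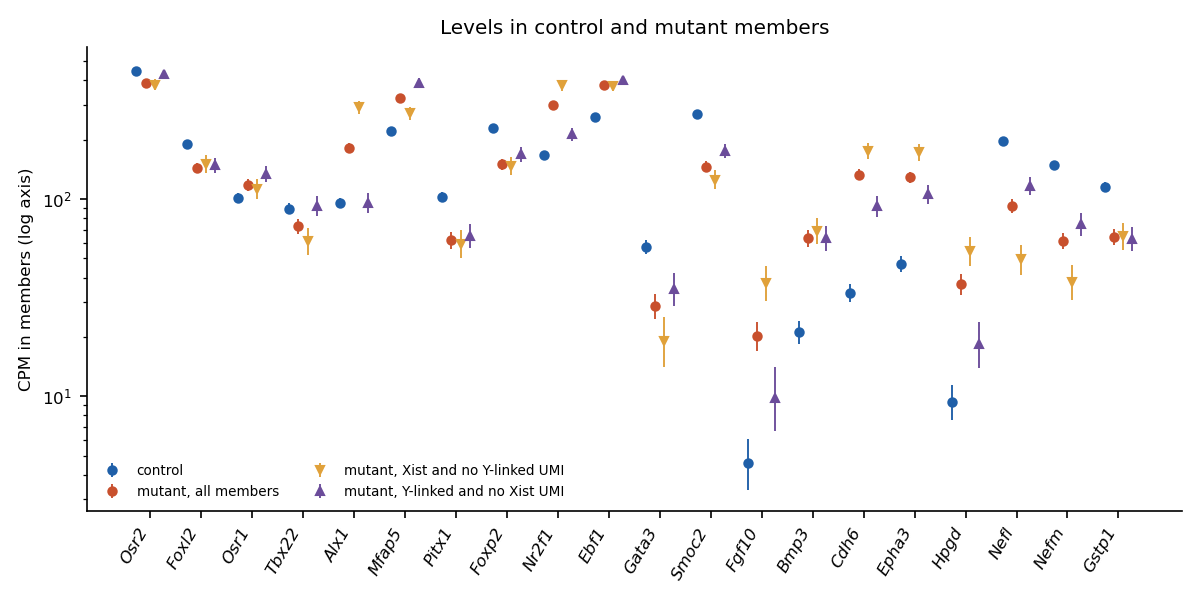
CPM in members on a log axis, with 95% counting intervals, of 20 genes chosen from the rule, the lists and the named genes after their values were seen, in the control library (blue circles), in all mutant members (orange circles) and in mutant members with Xist only (downward triangles) or Y-linked UMIs only (upward triangles). The mutant subsets lie together for Foxl2, Pitx1, Bmp3 and Gstp1, whereas for Alx1 the Xist cells are at 292 CPM and the Y cells at 95.4 CPM, beside 95.7 CPM in the control.

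The genes lowest in mutant relative to control members were Gm14296, Gm14305, Nefm, Gm6710, Nefl, Gata3, Smoc2, Angptl7, A830018L16Rik, Gstp1, Wfdc2 and Bche. Gm14296, Gm14305 and Gm6710 lie close together on chromosome 2 among similar genes, so their reads may be split between copies and their values are uncertain, and their ratios were 0.172, 0.248 and 0.432 in the other mesenchyme. In members the log2 ratio of Gm14305 was 0.13, in the other direction, when cells were thinned before the rule. Smoc2, a calcium-binding matrix protein gene, was at 269 CPM (259 to 280) in the control and 146 CPM (137 to 155) in the mutant, with 125 and 176 CPM in the mutant subsets, and it was detected in 66.8% and 42.1% of members. Gata3 was at 57.4 CPM (52.9 to 62.3) and 28.6 CPM (24.8 to 32.9), with 19.1 CPM in Xist and 35.1 CPM in Y cells, and gave 0.848 in the other mesenchyme. Gstp1, a glutathione transferase gene, was at 115 CPM in the control and at 64.7 and 63.0 CPM in the subsets. It was lower in the other mesenchyme of the mutant too, with a ratio of 0.646 (0.615 to 0.679), and in retinal cells, at 59.2 and 36.9 CPM. Both subsets lay below the control for Smoc2, Gata3 and Gstp1.

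Nefl and Nefm, which encode neurofilament light and medium chains, were also among these genes. Nefl was at 198 CPM (189 to 207) in control and 92.4 CPM (85.4 to 99.8) in mutant members, with 49.5 CPM in Xist and 116 CPM in Y cells of the mutant. It was detected in 49.7% of control and 33.1% of mutant members, and 5 cells held 12.7% and 25.1% of its UMIs. Retinal cells had it at 72.7 and 85.3 CPM, and all other kept cells together at 143 and 158 CPM, below control members but above mutant members. Its ratio in the other mesenchyme was 0.695 (0.644 to 0.750). Snap25, a synaptic membrane fusion gene, went the other way, at 16.7 and 50.5 CPM. Whether nerve cell RNA had a part in either was not tested.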

How the data were processed

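Single-cell 3′ libraries of e15.5 eye cups were compared, 1 per genotype, with groups taken from the labelled genotype. The authors deposited raw UMI counts for 31053 genes per cell, without normalization. Cell Ranger 7.1.0, Seurat 4.1.1 and the mm10 build are named in the submitters' processing notes, whereas the headers of the deposited matrices name version 3.1.0. The study's upper limit of 2000 UMIs per cell was not applied, since the rule asks for more.

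The members and the gene lists were chosen with earlier results of these data known. In each library, the UMIs of a gene in a set of cells were added up and scaled to the set's total (CPM). Sums have exact Poisson, ratios exact conditional binomial and shares exact Clopper-Pearson intervals at 95%, all for counting error only and assuming independent UMIs. A sum of 0 was set to 3 counts in ratios, and no ratio was formed with 3 or fewer in both. Retinal cells had 3 or more of 6 retinal genes and at most 2 collagen UMIs. Genes were measured with 20 or more UMIs over both libraries. Mitochondrial, haemoglobin, Xist and Y-linked genes were left out of the named genes and of the counts over genes with 200 or more UMIs.

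Besides list genes, named genes were, by genotype, the 12 in each direction with the largest ratio among genes with 200 or more UMIs, an interval without 1 and, in either library, a CPM at or above that of all other kept cells. Against the other mesenchyme they were the 20 highest and 10 lowest by the smaller of both libraries' ratios, with 30 or more UMIs in each, and between Foxl2 and Tbx22 cells the 8 in each direction chosen likewise. Doublets were called with Scrublet in scanpy 1.11.5, with an expected rate of 0.8% per 1000 barcodes. Gene spans are those of GENCODE on GRCm38. Python 3.11.15, numpy 2.4.6 and scipy 1.17.1 were used, and ratios and intervals were tested on simulated data. The study's other ages were not analysed here.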

Additional observations from a re-analysis of the deposited data

Results flagged for a closer look

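A Y-linked UMI was found in 285 of the 544 mutant members, or 52.39% (48.1% to 56.7%), and in 1 of the 742 control members, or 0.135% (0.00341% to 0.749%). These genes were outside the comparisons, and their level lay above that in the control library.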

How the results depend on the processing

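Over 16 alternatives, 120 of the values that answer a comparison stayed and 20 moved. Ratios of shares were taken to stay where they lay within the interval of the reported value, and counts of genes where they lay within 1.5 times the reported count. List medians were taken to stay between the median lower bound and the median upper bound of their genes' intervals. Those bounds are not an interval of the median itself. Medians near 0 changed sign under some alternatives, as given below for elastic fibre and retinoic acid genes, and the proteoglycan median was -0.11 with at most 5% mitochondrial UMIs and the median of the mesenchyme factors 0.017 without pigment-rich or haemoglobin-rich members. The ratio of member shares over kept cells was 0.817 when no tendon or keratocyte gene was allowed (289 and 260 members) and 0.772 in Xist cells. The ratio over mesenchyme was 1.22 (1.03 to 1.45) without those genes and, with thinning to 2000 UMIs before the rule, 0.883. With 50 UMIs per gene, 432 genes were higher and 270 lower in the mutant, with no filter 1328 and 1135, and in Xist cells 678 were higher and 1118 lower. Against all other kept cells, 2268 genes were higher and 2899 lower in members. Median log2 ratios were, for elastic fibre genes, -0.043 with at most 5% mitochondrial UMIs, 0.24 without tendon or keratocyte genes, -0.082 in Xist cells, -0.058 after thinning and 0.33 in mutant Y cells against all control members. Collagen medians were 0.34, 0.10 and 0.37 without those genes, in Xist cells and in Y cells, and the retinoic acid median was -0.28 after thinning. The cause of these shifts was not tested.

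Of the values of single genes and marker lists, 946 stayed, 287 moved and 20 turned direction. Thinning turned the keratocyte (0.052) and erythroid (0.77) medians and the log2 ratios of Gm14305 (0.13), Eln (-0.11), Tfap2a (-0.29), Barx1 (0.18), Fgf7 (0.27) and Bmp4 (-0.038), with 255 control and 187 mutant members left. Xist cells turned the neural retina (-0.82) and erythroid (0.20) medians and Eln (-0.19). Without tendon or keratocyte genes, the endothelial median was 0.0095, the melanocyte and Schwann median 0.37 and Tmem98 0.085. The endothelial median was 0.41 with free RNA subtracted and 0.14 with no filter. Acta2 was -0.13 without the 5 richest cells, Osr1 was -0.043 at 5% mitochondrial UMIs, and in mutant Y cells Tbx22 was 0.050 and Alx1 -0.0035. The Y cell alternative and the one without pigment-rich or haemoglobin-rich members were chosen after seeing the data. No paired analysis was possible because each genotype had 1 library, and for the same reason no library could be left out. Genes under about 200 UMIs have wide intervals at this depth.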
